A study of Mus musculus with 24 samples.

Results

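Complement genes were followed through bulk RNA-Seq of primary precursor cultures from mouse brown (BAT) and visceral white (vWAT) fat. The genes were C3, C4b, Cfb, C1ra, C2, Serping1 and Clu, complement components and regulators other than C1q and Cfd, taken by symbol from the expression table. They are 7 of the 49452 genes listed, and all 7 were found, each on 1 row. The cells came from the stromal-vascular fraction (SVF) of male C57BL/6 mice, were nucleofected with a non-targeting siRNA (siCtrl) or with siH19 against the lincRNA H19, and were harvested before induction of adipogenesis (d0) or 3 days after it (d3). Depot, siRNA and day formed 8 groups of 3 libraries: BAT siCtrl d0, BAT siH19 d0, BAT siCtrl d3, BAT siH19 d3 and the same 4 groups from vWAT, and every library came from nucleofected cells. Induction used insulin, dexamethasone and rosiglitazone, with IBMX for vWAT and indomethacin and T3 for BAT (the labels and the study's methods differ on whether BAT also received IBMX), and the later medium held rosiglitazone for vWAT and T3 for BAT. The d3 groups thus differed in depot and in medium. The titles of all siH19 libraries read siH19_3, so other effects of that siRNA cannot be told apart from H19 loss. Per the study's methods BAT tissue was pooled where cells were too few, and the labels call the vWAT epididymal. Nothing in the labels says that the 3 libraries of a group came from separate animals or cultures, so the p-values measure only the spread between these libraries.

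Complement is a cascade of plasma and tissue proteins that tags microbes and debris and recruits immune cells. The classical route starts with the C1 complex, in which the proteases C1r and C1s are activated and cleave C4 and C2, and the alternative route amplifies C3 cleavage through factor B. All routes meet at C3, while the C1 inhibitor Serping1 and clusterin (Clu) restrain the start and the end of the cascade. The liver makes most of the circulating proteins, but fibroblast-like stromal cells also transcribe several of these genes, and adipocytes secrete factor D (Cfd), also named adipsin.

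In the GRCm38 genome, C3 (ENSMUSG00000024164) lies at chr17:57203970-57228136 on the minus strand. C4b (ENSMUSG00000073418) at chr17:34728380-34743882, Cfb (ENSMUSG00000090231) at chr17:34856374-34862518 and C2 (ENSMUSG00000024371) at chr17:34862604-34898265 share the class III part of the major histocompatibility complex, also on the minus strand, and only 85 bases separate Cfb from C2. C1ra (ENSMUSG00000055172) lies at chr6:124512405-124523443 on the plus strand. Serping1 (ENSMUSG00000023224) lies at chr2:84765387-84775444 on the minus strand and Clu (ENSMUSG00000022037) at chr14:65968483-65981548 on the plus strand. All values are for whole genes, so exons and UTRs are summed.

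RefSeq sequence around the gene start (GRCm38.p6) was held for 2 of the 7 genes, C3 and C1ra, and is shown because both changed with depot and day. For C3 it runs from 250 bases before the start through the first 30 bases of the gene, at chr17:57228107-57228386 on the minus strand. For C1ra only the first 30 bases from the RefSeq start are shown, at chr6:124512621-124512650 on the plus strand, because the annotated gene begins upstream of that start. Capitals mark a C/EBP motif (TTGCNNAA on either strand) and, in C3, also a TATAAA.
C3: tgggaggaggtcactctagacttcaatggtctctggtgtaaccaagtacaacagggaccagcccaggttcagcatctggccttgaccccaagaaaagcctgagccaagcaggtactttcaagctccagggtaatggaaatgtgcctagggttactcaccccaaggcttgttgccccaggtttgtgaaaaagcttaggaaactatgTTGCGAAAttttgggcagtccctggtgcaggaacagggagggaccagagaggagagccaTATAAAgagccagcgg
C1ra: agattttttttgctgtTTATGCAAatgctt
Positions are counted from 0 at the start base. In the whole window of 300 bases, the C/EBP motif lay at -45 to -38 in C3 and, on the opposite strand, at 16 to 23 in C1ra, and 10.8% of 32851 promoters of that length hold it. A GAS motif (TTCNNNGAA), the class of site bound by STAT factors, lay at 32 to 40 in C1ra and is held by 8.3% of promoters. The TATAAA of C3 lay at 14 to 19 (13.6% of promoters). The NF-kB motif (5.8%), the interferon-stimulated response element (3.44%) and the glucocorticoid receptor motif (0.475%) were in neither window. The motifs were searched on both strands and none of the matches shown overlapped another.

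The values are FPKM, fragments scaled to gene length and library size, so that levels can be set side by side between genes. The libraries summed to between 710794 and 841456 FPKM, with 12311 to 13125 genes at an FPKM of 1 or more. The files hold no read counts, so the absolute depth is unknown. The relative depth read from the steps of low values was 0.825 to 0.984 in the 12 BAT libraries and 1.02 to 1.17 in the vWAT libraries, and the library names carry a different prefix in each depot, so that depot, prefix and depth cannot be told apart. Replicates correlated at Pearson r of 0.988 to 0.991 across genes, which are not independent replicates. The target H19 (chr7:142575529-142578143, minus strand) fell in every group given siH19. In BAT it stood at 108, 160 and 122 FPKM in siCtrl d0 against 2.82, 5.20 and 5.05 in siH19 d0, and the mean remaining was 3.35%. At d3 in BAT 15.3% remained, and in vWAT, where siCtrl held only 11.3 to 12.3 FPKM at d0 and 8.19 to 8.90 at d3, 10.3% and 6.15% remained.

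Before induction the control cells of both depots transcribed all 7 genes. Serping1 led in BAT siCtrl d0 with 515.6, 504.3 and 500.5 FPKM, and C3 followed with 124.5, 119.6 and 142.6. In vWAT siCtrl d0 the order was turned, with C3 at 696.9, 768.8 and 698.7 and Serping1 at 459.8, 495.7 and 456.7. C3 was thus 5.60-fold lower in BAT than in vWAT while Serping1 was at a similar level, so that the leading transcript of the 7 differed between the depots. Of the summed FPKM of the 7 genes, Serping1 held 60.4% ± 0.94 (SD, n = 3) and C3 15.3% ± 1.36 in BAT siCtrl d0, against 26.1% for Serping1, 39.9% ± 0.33 for C3 and 16.3% for Clu in vWAT siCtrl d0. The sum itself was 833 to 844 FPKM in BAT siCtrl d0 and 1749 to 1907 in vWAT siCtrl d0.

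**Figure D1:**
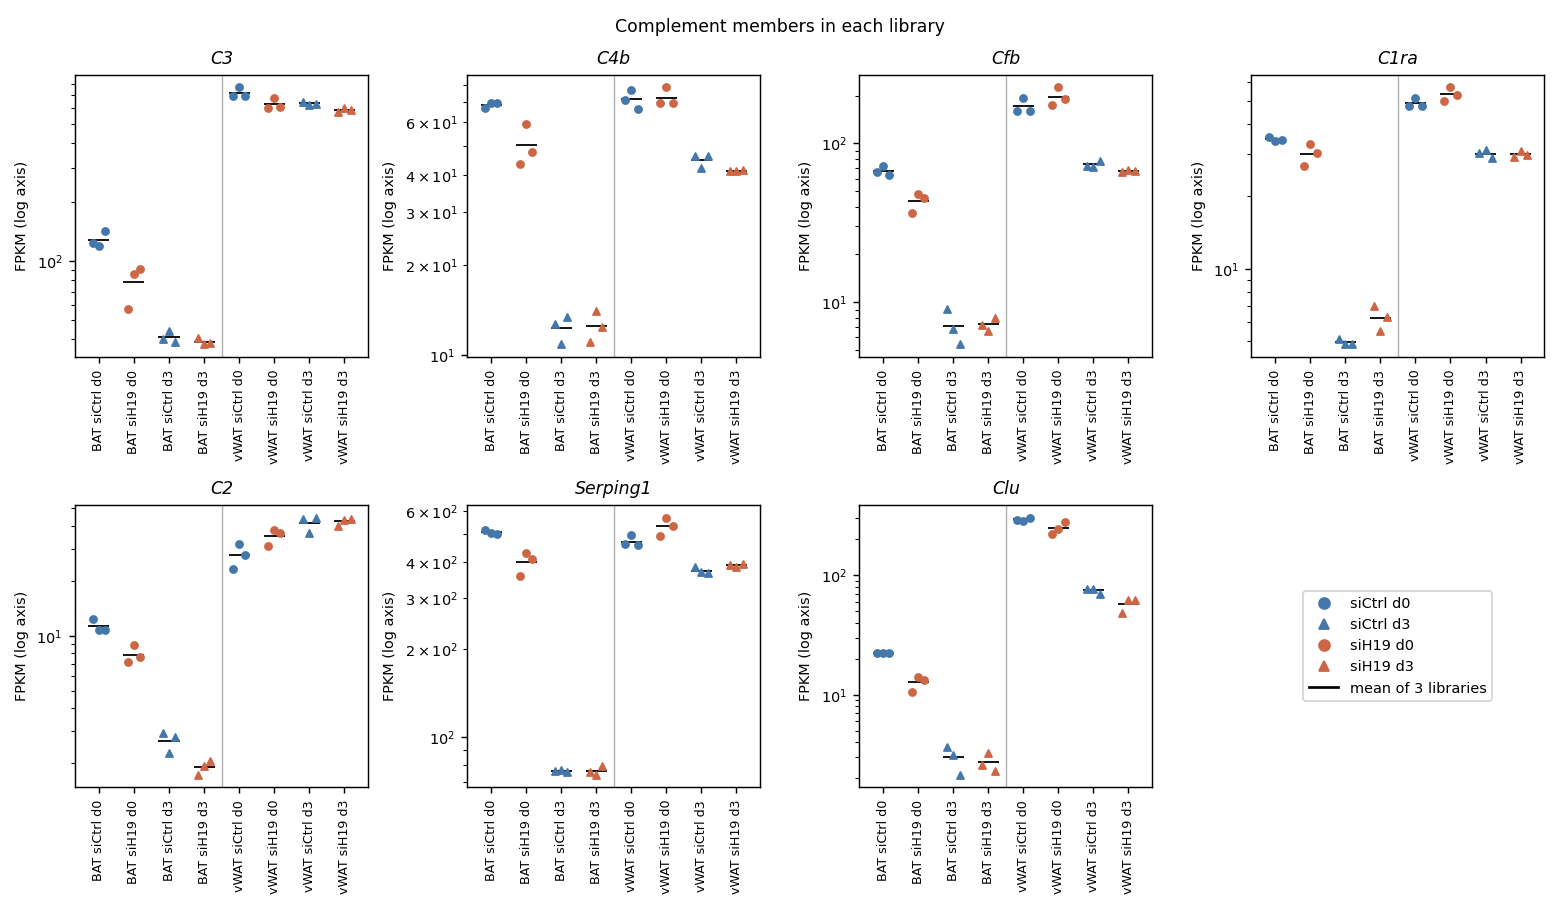
FPKM of the 7 complement genes in every library, on log axes, with 1 point per library and a bar at the mean of 3 for each of the 8 groups. C3 and Clu sit higher in all 12 vWAT libraries than in any BAT library, while Serping1 and C4b overlap or nearly overlap between the depots at d0 and part at d3.

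Each depot comparison below was tested with limma on log2(FPKM + 1), where a gene counts as called when it changed at least 1.3-fold with a p under 0.05 after Benjamini-Hochberg adjustment over all genes tested. Log2 differences on this scale understate the change of low genes. At d0, 5 of the 7 genes were called lower in BAT siCtrl than in vWAT siCtrl, against 21% of all 13139 genes tested, and the same 5 lay below every vWAT library, against 40.3%. Clu, a secreted chaperone, differed most at -3.66 ± 0.04 on the log2 scale (SE, adjusted p = 1.06e-07), with 22.2, 22.3 and 22.4 FPKM in BAT and 289.2, 287.6 and 304.0 in vWAT. C3 differed by -2.48 ± 0.08 (adjusted p = 2.16e-06).

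Cfb, the protease of the alternative C3 convertase, stood at 66.0, 72.5 and 63.3 FPKM in BAT siCtrl d0 and at 160.9, 194.4 and 160.0 in vWAT siCtrl d0, a log2 difference of -1.34 ± 0.09. C2, its counterpart in the classical route, stood at 12.4, 10.7 and 10.8 against 23.3, 32.0 and 27.7 (-1.21 ± 0.12). C1ra, the mouse C1r protease, stood at 35.2, 34.1 and 34.3 against 47.6, 51.5 and 47.6. C1ra was the smallest of the called differences at -0.49 ± 0.05 (adjusted p = 0.00028), and it fell under the fold minimum at -0.37 when libraries were scaled to a common trimmed mean. That scaling moved the median of all genes by 0.111 at d0 and 0.121 at d3 towards BAT.

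C4b, which joins C2 in the classical C3 convertase, did not pass at d0: it stood at 66.8, 69.3 and 69.8 FPKM in BAT and 71.3, 77.1 and 66.7 in vWAT, a difference of -0.06 (95% interval -0.20 to 0.08) whose sign turned to 0.06 after scaling. Serping1 was 0.11 higher in BAT with an adjusted p of 0.0693 and no overlap between the libraries. C4b and Serping1 were therefore the genes nearest in level between depots before induction, and the widest gaps of the 7 were in Clu and C3.

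After 3 days of differentiation the depots stood much further apart, and all 7 genes were called lower in BAT siCtrl than in vWAT siCtrl (32.1% of all genes tested were). Clu was 25.0-fold lower, C3 and C2 each 15.6-fold, Cfb 10.4-fold, C1ra 6.08-fold, Serping1 4.89-fold and C4b 3.63-fold, as ratios of mean FPKM. The log2 differences ran from -1.78 ± 0.09 for C4b to -4.27 ± 0.14 for Clu, with a median of -3.23 beside -0.159 over all genes tested. The sum of the 7 genes was 143 to 150 FPKM in BAT siCtrl d3 and 1258 to 1302 in vWAT siCtrl d3.

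The d3 gap came with a fall of every one of the 7 genes in BAT. C3 went from the values above to 39.9, 44.1 and 38.8 FPKM in BAT siCtrl d3, 3.15-fold lower than at d0. Serping1 went to 76.5, 76.8 and 75.4, 6.65-fold lower, and C1ra to 5.11, 4.86 and 4.89, 6.97-fold lower. No library of d3 reached the lowest library of d0 for any of the 7 genes (43.2% of all genes lay lower without overlap), and 7 of 7 were called lower against 35.3% of all 13001 genes tested.

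C4b fell to 12.7, 10.9 and 13.5 FPKM (5.55-fold). Cfb fell to 9.03, 6.78 and 5.44, which at 9.50-fold was the largest drop of the set. C2 fell to 2.94, 2.26 and 2.77 (4.24-fold), and Clu to 3.67, 3.13 and 2.15 (7.46-fold). On the log2 scale the 7 falls ran from -1.63 ± 0.08 (C3, adjusted p = 2.90e-06) to -3.10 ± 0.16 (Cfb, adjusted p = 3.34e-06), with Serping1 at -2.72 ± 0.03 (adjusted p = 1.20e-08), and their median was -2.57 beside -0.0991 over all genes. C3, the hub of the cascade, thus fell least of the 7 and its share of the summed FPKM went up, from 15.3% to 27.8% ± 1.61.

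In vWAT siCtrl the same days gave smaller and mixed changes, with 4 genes called lower and 1 higher (23.9% and 26.3% of 13368 genes tested). Clu fell most, from the d0 values above to 76.7, 77.6 and 69.9 FPKM (-1.96 ± 0.05, adjusted p = 5.09e-07). Cfb fell to 72.1, 71.4 and 77.9 (-1.20 ± 0.08), C1ra to 30.4, 31.1 and 28.9 (-0.68 ± 0.05) and C4b to 46.4, 42.3 and 46.2 (-0.66 ± 0.07). C2 went the other way: it rose to 43.7, 36.4 and 44.4 FPKM, above every d0 library and 1.501-fold higher in mean (0.57 ± 0.13, adjusted p = 0.00692).

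C3 and Serping1 stayed abundant in vWAT. C3 stood at 649.0, 628.7 and 633.5 FPKM at d3, a log2 difference of -0.18 ± 0.05 with an adjusted p of 0.0126. Serping1 stood at 383.2, 370.7 and 365.5 (-0.33 ± 0.04, adjusted p = 0.000505). Both lay below all d0 libraries but under the fold minimum of 1.3. At d3, C3 made up 50.0% of the summed FPKM of the 7 genes in vWAT siCtrl, Serping1 29.3% and Clu 5.86%.

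**Figure D2:**
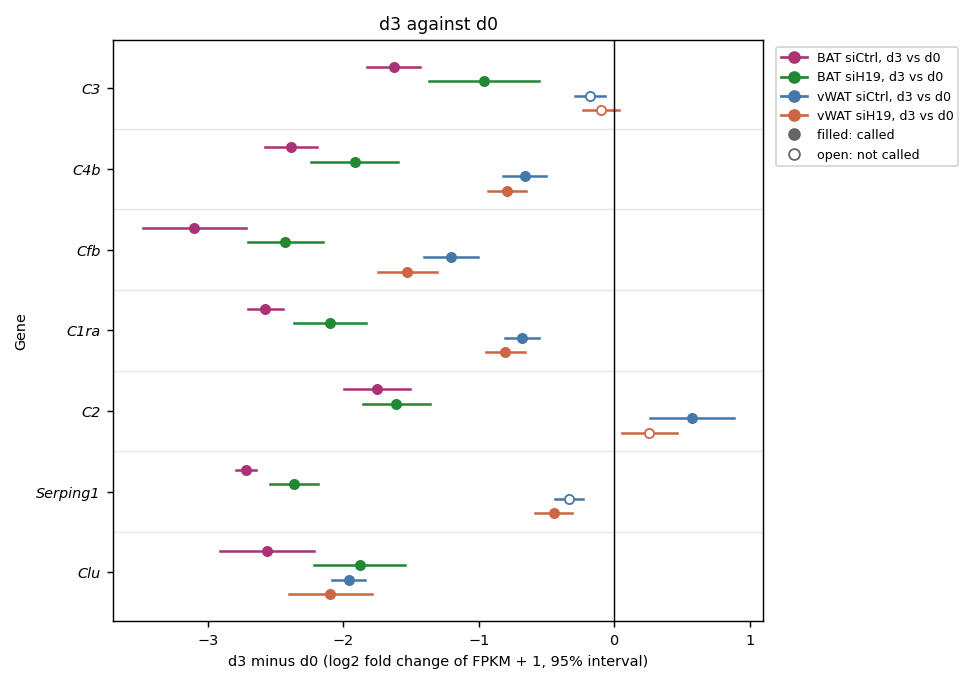
Log2 fold change of FPKM + 1 from d0 to d3 for the 7 genes, with 95% intervals, in BAT siCtrl, BAT siH19, vWAT siCtrl and vWAT siH19 (3 libraries a day). Filled points were called, open points were not. All BAT points lie between -3.10 and -0.96, while C3 and C2 of vWAT lie near or above 0.

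**Figure D3:**
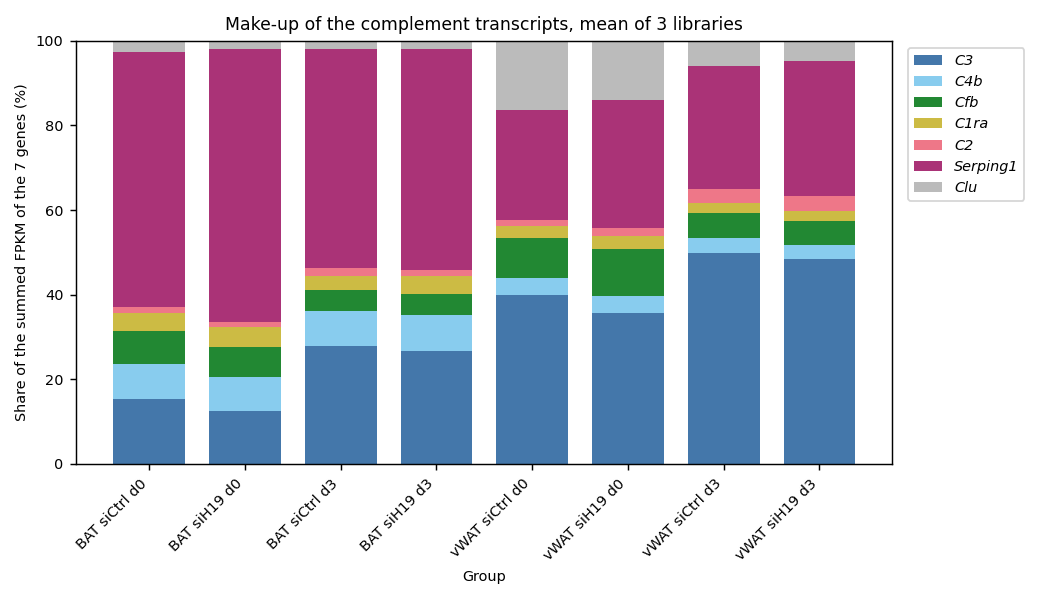
Share of each gene in the summed FPKM of the 7 complement genes, in percent, as the mean of 3 libraries for each of the 8 groups. Serping1 is the largest segment in every BAT group and C3 the largest in every vWAT group.

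The difference between the depots in the d0 to d3 change was itself tested as an interaction of depot and day over the 12 siCtrl libraries. All 7 genes passed in the direction of a larger fall in BAT, against 28.1% of 14111 genes (called here by the adjusted p only). The difference was largest for Serping1 at -2.38 ± 0.05 (adjusted p = 2.37e-10) and C2 at -2.32 ± 0.17, intermediate for Cfb, C1ra, C4b and C3 (-1.90, -1.90, -1.72 and -1.45), and smallest for Clu at -0.60 ± 0.16 (adjusted p = 0.0089). Clu was thus the gene that fell most alike in the depots. These values share libraries with the comparisons above and are no further evidence for them.

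Knockdown of H19 did not prevent the fall in BAT: 7 of 7 genes were called lower in BAT siH19 d3 than in BAT siH19 d0, against 29.8% of all genes. The log2 differences were -0.96 ± 0.17 for C3, -1.91 for C4b, -2.43 for Cfb, -2.10 for C1ra, -1.61 for C2, -2.37 for Serping1 and -1.88 for Clu. In vWAT siH19, 5 genes were called lower (24.5% of all genes): C4b (-0.79), Cfb (-1.53), C1ra (-0.80), Serping1 (-0.45) and Clu (-2.10). C3 at -0.10 (adjusted p = 0.167) and C2 at 0.26 (adjusted p = 0.0326, under the fold minimum) were not.

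Before induction, 2 of the 7 genes, Clu and Cfb, were called lower after siH19 in BAT. Clu stood at 10.6, 14.0 and 13.4 FPKM in siH19 against 22.2, 22.3 and 22.4 in siCtrl, 56.9% of control. Cfb stood at 36.7, 48.1 and 45.6 against 66.0, 72.5 and 63.3, 64.6% of control. On the log2 scale Clu differed by -0.78 ± 0.10 (adjusted p = 0.0255) and Cfb by -0.63 ± 0.11 (adjusted p = 0.0385), and 2 of 7 compares with 1.32% of 12651 genes tested.

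The other 5 genes had lower values without passing the adjusted threshold. C3 stood at 57.3, 86.0 and 91.7 FPKM against 124.5, 119.6 and 142.6, 60.8% of control (-0.74 ± 0.18, adjusted p = 0.0829). C2 stood at 7.13, 8.88 and 7.64 against 12.4, 10.7 and 10.8 (-0.47 ± 0.10, adjusted p = 0.0606). C4b stood at 43.4, 59.4 and 47.8 against 66.8, 69.3 and 69.8 (-0.46 ± 0.11, adjusted p = 0.0829). In none of these genes did the siH19 libraries reach the control libraries.

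Serping1 stood at 357.0, 431.0 and 408.7 FPKM against 515.6, 504.3 and 500.5, 78.7% of control (-0.35 ± 0.07, adjusted p = 0.0535). C1ra was nearest to its control at 26.7, 33.0 and 30.4 against 35.2, 34.1 and 34.3 (-0.20 ± 0.08, adjusted p = 0.236). The groups were apart in 7 of 7 genes, where 16.1% of all genes lay below their control without overlap, and the members' median was -0.47 beside -0.0267 over all genes. Replicate 1 of BAT siH19 d0 was the lowest library of its group in all 7 genes, so they do not count as separate observations of the culture. All 7 were at an unadjusted p under 0.05, as were 2482 of all 12651 genes tested.

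The calls were sensitive to single libraries. Cfb was called in none of the 6 fits that left out a library (adjusted p 0.0604 to 0.115), and Clu only in those without BAT siH19 d0 replicate 1 or 2, since leaving out any of the 3 siCtrl libraries or siH19 replicate 3 took its adjusted p to between 0.0700 and 0.0990. The log2 differences of Clu in the latter 4 fits were -0.77 to -0.82. C4b was called at -0.58 (adjusted p = 0.0369) without BAT siH19 d0 replicate 2. In limma both calls also ended without the filter on low FPKM (adjusted p 0.0957 for Cfb and 0.0623 for Clu) and with the replicate block (0.0934 and 0.0856), and that of Cfb without the intensity trend (0.0634).

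**Figure D4:**
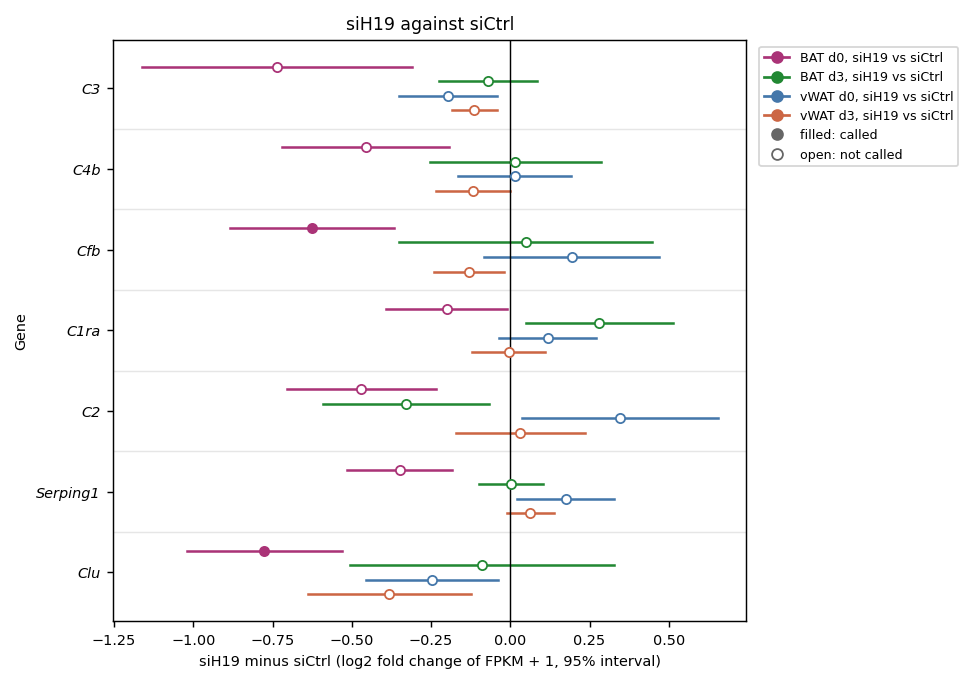
Log2 fold change of FPKM + 1 between siH19 and siCtrl for the 7 genes with 95% intervals, in BAT and vWAT at d0 and d3 (3 libraries a group). Filled points were called, open points were not. The 7 BAT d0 points lie between -0.20 and -0.78 and only Clu and Cfb are filled.

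At d3 in BAT the levels of all 7 genes were lower than at d0 in both arms. No member was called by limma after siH19, against 8.57% of 12500 genes tested. Of the 7, 2 were at an unadjusted p under 0.05, as were 3913 of all genes tested. C2 stood at 1.73, 1.93 and 2.06 FPKM in siH19 against 2.94, 2.26 and 2.77, below all controls (-0.33 ± 0.11, adjusted p = 0.0928). C1ra stood at 6.99, 5.49 and 6.29 against 5.11, 4.86 and 4.89, above all controls (0.28 ± 0.10, adjusted p = 0.102). The other 5 genes overlapped between the arms, where 37.2% of all genes did not.

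For those 5 genes the intervals bound what the libraries could show. Serping1 differed by 0.0016 with a 95% interval of -0.10 to 0.10, and C3 by -0.07 with an interval of -0.23 to 0.08. The intervals were wider for C4b (-0.25 to 0.29), Cfb (-0.35 to 0.45) and Clu (-0.51 to 0.33), whose levels were 2.15 to 14.1 FPKM. C3 stood at 40.8, 37.7 and 38.2 FPKM in siH19 d3 and Serping1 at 75.5, 74.2 and 79.4.

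The change of the siH19 difference from d0 to d3 in BAT was positive in 7 of 7 genes, where 35.1% of those of all genes were negative, and passed for C1ra (0.48 ± 0.12, adjusted p = 0.0356) and Serping1 (0.35 ± 0.08, adjusted p = 0.0266), against 7.79% of 13575 genes in that direction. The other 5 lay between 0.14 and 0.69 with adjusted p of 0.0758 or more. After trimmed-mean scaling neither passed, Serping1 standing at 0.25 with an adjusted p of 0.114. The C1ra call held only without BAT siH19 d0 replicate 2 or BAT siH19 d3 replicate 2 (adjusted p 0.0547 to 0.0810 without each of the others), and the Serping1 call was lost without any BAT siCtrl d0 library, BAT siCtrl d3 replicate 2 or 3, or BAT siH19 d3 replicate 3 (adjusted p 0.0517 to 0.0599).

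In vWAT at d0 no member was called by limma after siH19 (1.53% of 13063 genes were), with 4 of 7 at an unadjusted p under 0.05, as were 2303 of all genes tested. C3 stood at 601.1, 678.5 and 610.1 FPKM against 696.9, 768.8 and 698.7 (-0.20 ± 0.06, adjusted p = 0.196), and Clu at 221.2, 242.8 and 281.3 against 289.2, 287.6 and 304.0 (-0.25 ± 0.09, adjusted p = 0.216). These were the only genes of the 7 whose arms did not overlap, where 16.2% of all genes lay lower without overlap. C2 and Serping1 had higher means, with C2 at 31.0, 38.2 and 36.7 against 23.3, 32.0 and 27.7 (0.35 ± 0.13, adjusted p = 0.235) and Serping1 at 493.3, 568.8 and 533.8 against 459.8, 495.7 and 456.7 (0.17 ± 0.06, adjusted p = 0.226).

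The remaining genes of vWAT d0 overlapped between the arms. Cfb was at 174.5, 225.6 and 190.7 FPKM (0.19, interval -0.08 to 0.47), C1ra at 49.7, 56.9 and 53.0 (0.12, interval -0.04 to 0.27) and C4b at 69.3, 78.4 and 69.5 (0.01, interval -0.16 to 0.19).

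In vWAT at d3 again no member was called by limma (0.0305% of 13097 genes were, or 4 genes), with 4 of 7 at an unadjusted p under 0.05, as were 1315 of all genes tested. Clu had the largest difference, at 48.1, 62.0 and 62.3 FPKM against 76.7, 77.6 and 69.9, 76.9% of control (-0.38 ± 0.11, adjusted p = 0.366). C3 stood at 578.3, 600.4 and 587.2 against 649.0, 628.7 and 633.5 (-0.11 ± 0.03, adjusted p = 0.36). C4b at 41.2, 41.3 and 41.5 and Cfb at 66.1, 68.5 and 67.2 also lay below all their controls, by -0.12 and -0.13. Serping1 lay above them at 389.8, 385.4 and 394.1 (0.06, interval -0.01 to 0.14), while C1ra (29.3, 30.8 and 29.9) and C2 (40.1, 43.1 and 43.7) overlapped. The arms were thus apart in 5 of 7 genes, against 16.2% of all genes.

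Whether siH19 acted differently in the depots was tested over 12 libraries a day. At d0 all 7 interactions were negative, with BAT the lower, as were 48.8% of those of all genes. All 7 were at an unadjusted p under 0.05, as were 1823 of all genes tested. Of the members only Serping1 passed, at -0.52 ± 0.10 (adjusted p = 0.0384), against 0.569% of 13708 genes in that direction. Cfb at -0.82 and C2 at -0.82 had adjusted p of 0.0533 and 0.0535, and Clu (-0.53), C3 (-0.54), C4b (-0.47) and C1ra (-0.32) had 0.125 to 0.286. The Serping1 call held without BAT siH19 d0 replicate 2 and was lost without any other of the 12 libraries (adjusted p 0.0530 to 0.0928). At d3 no member passed in limma (10.5% of 13762 genes did), with C1ra at 0.28 and C2 at -0.36 the 2 members at an unadjusted p under 0.05, as were 3526 of all genes tested. C1ra passed at 0.36 (adjusted p = 0.025) without BAT siH19 d3 replicate 2. In vWAT, the siH19 difference changed from d0 to d3 for none of the 7 genes by limma (1.73% of 13948 genes did), with Cfb (-0.32, adjusted p = 0.32) the only 1 at an unadjusted p under 0.05, as were 1944 of all genes tested.

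Across the 8 groups each gene had its own order. C3 and Clu were higher in all 4 vWAT groups than in any BAT group, and so was C2. C3 was highest in vWAT siCtrl d0, and its libraries overlapped between vWAT siCtrl d3 and vWAT siH19 d0 and between the BAT d3 groups. Clu was highest in vWAT siCtrl d0, and its neighbouring groups were apart except in BAT d3. C2 was highest in the d3 groups of vWAT, where C4b, Cfb and C1ra were highest in the d0 groups of vWAT. Serping1 was highest in vWAT siH19 d0 and BAT siCtrl d0, which overlapped. Serping1, C4b, Cfb and C1ra had a BAT d0 group ranked between vWAT groups. All 7 genes were lowest in the BAT d3 groups.

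Over the 24 libraries, the members' log2(FPKM + 1) values correlated pairwise at Pearson r from 0.732 (C3 and C4b) to 0.984 (C1ra and Serping1), and C3 with C2 at 0.972. Many of these points share depot, day and siRNA, so r describes a shared pattern of 8 groups. The genes most like each member, among 12658 ranked, were Fbln1 (0.997), Eps8 and Spon1 (0.992 each) for C3; Gpc3 (0.987), Pawr (0.985) and Lrrn2 (0.984) for C4b. For Cfb they were the row named Lilr4b;Lilrb4a (0.989), Cxcl16 (0.987) and Sema5a (0.986). For C1ra they were Cpxm1 (0.995), H2-T23 and Adgra2 (0.994 each), and for C2 Cyp7b1 (0.988), Spon1 and Kng2 (0.985 each). For Serping1 they were Lrrn2 (0.995), Plp2 (0.993) and Ogn (0.992), and for Clu Zfp36l1 (0.991), Slc7a2 (0.988) and Flrt2 (0.987). Fbln1, an extracellular matrix glycoprotein, stood at 23.3 FPKM in BAT siCtrl d0, 15.1 in BAT siH19 d0, 7.93 in BAT siCtrl d3 and 116 in vWAT siCtrl d0.

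Of 49 other complement genes in the table, 1 was at 0 in all libraries, 20 stayed under an FPKM of 1 in all, and 27 reached 1 in at least 3 libraries. C1s1, the protease partner of C1r, stood at 108 to 111 FPKM in BAT siCtrl d0 and 16.05 to 21.1 in BAT siCtrl d3 (-2.52 ± 0.09, adjusted p = 7.33e-07), and at 150 to 152 and 131 to 146 in vWAT siCtrl (-0.10, adjusted p = 0.105). After siH19 in BAT d0, C1s1 differed by -0.26 (adjusted p = 0.0811). Cfd, the protease that activates factor B, fell from 207 to 244 FPKM in BAT siCtrl d0 to 14.6 to 17.2 at d3 (-3.73), and in vWAT siCtrl by -1.95.

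From d0 to d3 in BAT siCtrl, 4 of the 21 other complement genes tested were called higher and 9 lower. Of all 13001 genes tested, 3881 were called higher and 4590 lower. Besides Cfd and C1s1, Colec12, a scavenger receptor of the collectin family, fell by -2.03, while C1rl rose by 1.28 and C1qa, a chain of the C1q recognition protein made by macrophages, by 0.79. In vWAT siCtrl, 11 of 26 were called higher and 4 lower, against 26.3% and 23.9% of all genes. C1qa (1.43), Vsig4 (1.41) and Fcna (1.35), genes of macrophages, were among the largest of these changes. C1qa thus rose while the 7 genes fell in BAT siCtrl, but most of the macrophage markers read below were called lower there. Between the siCtrl depots at d0, 2 of 24 were called higher in BAT and 15 lower, and at d3 none of 25 higher and 22 lower. Of all genes tested, 1343 of 13139 were called higher and 2753 lower at d0. At d3, 2162 of 13120 were called higher and 4216 lower.

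After siH19 in BAT d0, 3 of 21 other complement genes were called lower and none higher: Cfd by -1.63 ± 0.21 (adjusted p = 0.0255), C1qa by -1.03 ± 0.17 and C1qb by -0.90 ± 0.14. In BAT d3, 4 of 18 were called lower, C1qa (-1.06), Cfd (-0.81), C1qb (-0.81) and C1qc (-0.79), and Colec12 higher (0.71). In vWAT d0, Cfd (-0.88, adjusted p = 0.0092) and C7 (-0.40), a terminal pathway component, were called lower of 24, and C1qa differed by 0.03. In vWAT d3 none of 26 was called, with Cfd at -0.16 and C1qa at 0.17. Of all genes tested, 167 of 12651 were called lower in BAT d0 and 157 of 13063 in vWAT d0. In BAT d3, 272 of 12500 were called lower and 799 higher, and in vWAT d3 4 of 13097 were called.

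Markers of other cell types and states were read in the same libraries, because in bulk RNA fewer cells of a type and less RNA per cell cannot be told apart. The counts called in each list below are to be read beside those over all genes in the same comparison, given above. The 10 precursor markers, led by Dcn and Ly6a, summed to 1602 to 1702 FPKM in BAT siCtrl d0 and to 498 to 539 in BAT siCtrl d3, where 9 of 10 were called lower, Dcn by -1.83 and Ly6a by -1.10. In BAT d0 siH19 called none of the 10 (Dcn -0.04, Ly6a 0.25). The complement sum, which was not tested, went from 833 to 844 FPKM in siCtrl to 539 to 680 in siH19. Its largest parts, Serping1 and C3, were not called there. In BAT d3, 4 of 8 precursor markers tested were called higher after siH19, Ly6a by 0.85. In vWAT siCtrl the precursor markers moved both ways from d0 to d3, 3 called higher and 5 lower of 10, with Dcn at -0.01 and Ly6a at 0.74. The fall of the 7 genes in BAT thus ran beside a fall of precursor transcripts, whose part in it was not tested.

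Macrophage markers, led by Lyz2 and C1qb, summed to 152 to 190 FPKM in BAT siCtrl d0 and 113 to 116 in BAT siH19 d0, where 3 of 11 were called lower, Lyz2 by -0.63. At d3 in BAT the sums were 154 to 187 in siCtrl and 92.5 to 106 in siH19, with 5 of 9 called lower. In vWAT siCtrl they were 363 to 408 at d0 and 631 to 684 at d3, with Lyz2 up by 0.94, beside a higher C2. In vWAT siH19 they were 358 to 390 at d0 and 700 to 786 at d3, where C2 differed by 0.26 and was not called. The part of macrophage RNA in the siH19 differences and in C2 was not tested. In BAT siCtrl the macrophage sums of d0 and d3 overlapped, with 2 of 11 markers called higher and 6 lower. Lyz2, at 105.4 to 134.2 FPKM at d0 and 115.9 to 147.5 at d3, held most of these sums. The 7 genes fell at least 3.15-fold there, and the part of macrophage RNA in that fall was not tested.

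Mesothelial markers, which the lining of visceral fat carries, were high in vWAT and near 0 in BAT: their sum was 1.37 to 10.1 FPKM over all BAT libraries, with Upk1b at 0 in every BAT siCtrl d0 library and Wt1 at 0.020 to 0.28. In vWAT siCtrl they summed to 237 to 278 at d0 and 61.1 to 79.3 at d3, where 8 of 9 were called lower, Upk1b by -2.29. Wt1 differed by -0.28 without reaching the fold minimum. Clu, higher in vWAT and lower at d3, moved with these markers there, and their part in the Clu values of vWAT was not tested. Clu also fell from d0 to d3 in BAT siCtrl, by -2.565, where these markers were near 0. After siH19 none of the 9 was called in vWAT on either day, and the 1 marker tested in BAT, Krt19, which other epithelial cells also carry, was called higher at d0 (0.68).

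**Figure D5:**
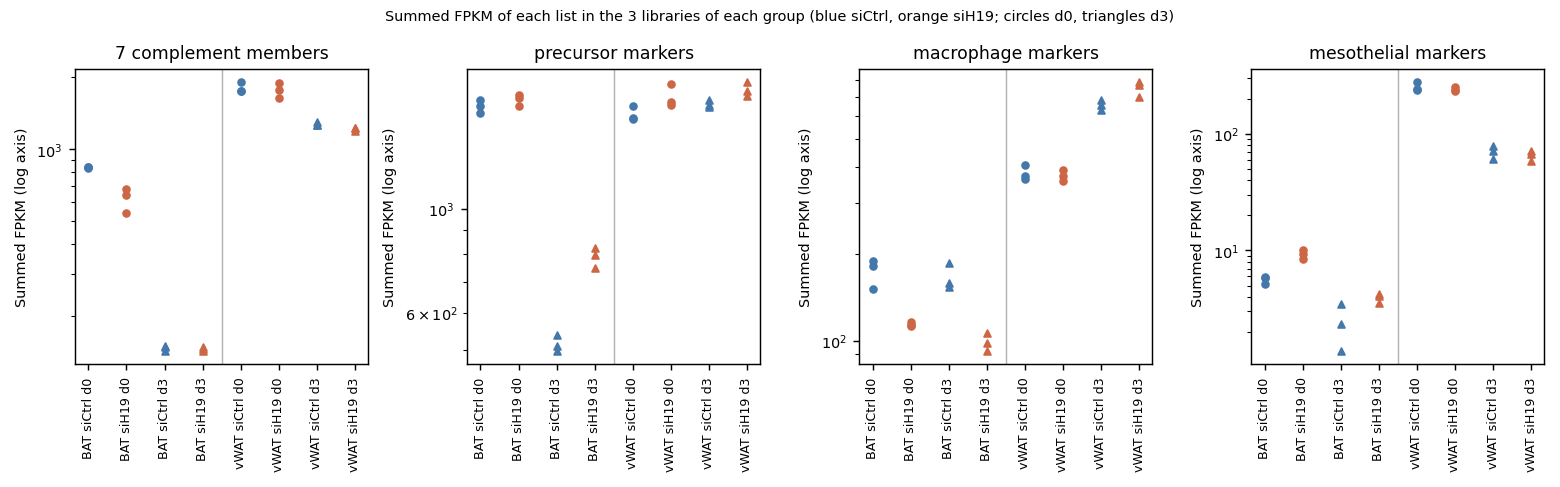
Summed FPKM of the 7 complement genes and of the precursor, macrophage and mesothelial marker lists in every library, on log axes, with 1 point per library for each of the 8 groups. In BAT the complement and precursor sums drop at d3. The macrophage sums of BAT siCtrl, most of which is Lyz2, overlap between days.

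The 10 adipocyte markers were all called higher at d3 in every depot and siRNA arm. Over all genes, 3881 of 13001 were called higher in BAT siCtrl and 3998 of 12962 in BAT siH19. In vWAT, 3519 of 13368 were called higher in siCtrl and 3761 of 13357 in siH19. Fabp4 rose by 3.80 and Lpl by 2.28 in BAT siCtrl, and by 2.50 and 1.02 in vWAT siCtrl. After siH19 at d0, 8 of 10 were called lower in BAT and 8 of 10 in vWAT, Fabp4 by -0.89 and -0.80. The part of adipocyte transcripts in the complement values was not tested. At d3, 1 of 10 was called lower in BAT and none in vWAT. Of the 6 brown adipocyte markers, 6 rose in BAT siCtrl, Elovl3 by 8.74 and Cox7a1 by 6.66. Their sums at d0 and d3 were 4.02 to 6.73 and 784 to 925 FPKM in BAT siCtrl. In vWAT siCtrl these sums rose too, from 2.10 to 4.16 at d0 to 150 to 167 at d3. After siH19 in BAT d3, 6 were called lower, Elovl3 by -0.68 and Cox7a1 by -0.66. Endothelial markers summed to 3.59 to 15.1 FPKM in all libraries, and Pecam1 and Emcn fell in BAT siCtrl from d0 to d3 by -0.88 and -1.01.

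Several of the 7 genes are classic targets of NF-kB, interferon and glucocorticoid signals, so other targets of these signals were read. Of 17 NF-kB and acute-phase genes, 12 were called lower and 2 higher from d0 to d3 in BAT siCtrl, and 10 lower and 4 higher in vWAT siCtrl. Saa3, an acute-phase gene, fell by -1.84 in BAT and -1.26 in vWAT, whereas Hp (haptoglobin) rose by 2.86 in vWAT and differed by 0.16 in BAT (adjusted p = 0.111). After siH19 in BAT d0, Hp was the 1 gene of 17 called lower (-0.89 ± 0.09, adjusted p = 0.0176), with 361 to 467 FPKM against 761 to 797, while Saa3 differed by -0.58 (adjusted p = 0.0979).

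Of the interferon-response genes, 15 of 18 fell and 1 rose from d0 to d3 in BAT siCtrl, and 6 of 18 fell and 3 rose in vWAT siCtrl. Bst2 fell by -1.63 in BAT and -0.71 in vWAT. After siH19 none was called at d0 in either depot, with a median of -0.325 over 18 genes in BAT and 0.50 over 19 in vWAT. Of the glucocorticoid-response genes, 8 of 11 rose in each depot from d0 to d3 in siCtrl, including Mt1 (3.06 and 1.60) and Mt2 (2.54 and 0.99), and none was called after siH19 at d0 in either depot.

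Near-identical and overlapping genes bear on 4 of the members. The C4b paralog C4a had group means of 0.63 to 2.10 FPKM and the C1ra paralog C1rb at most 0.361, so that fragments shared with them can have moved between rows. Zbtb12, which overlaps C2 on the other strand, stood at 2.23 to 7.09 FPKM, close to the 1.73 to 2.94 FPKM of C2 in BAT d3, and the use of strand in counting is not given in the sources used here, so C2 in BAT d3 is uncertain. A readthrough gene over Cfb and C2, Gm20547, was at 0.081 FPKM or less.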

How the data were processed

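Poly-A RNA was sequenced by the authors as 24 libraries on an Illumina instrument. Per the study's methods, reads were aligned to GRCm38 with TopHat2 2.0.10 in the QuickNGS pipeline and Ensembl genes were quantified with Cufflinks. The submitters' processing notes give Cufflinks as 2.2.1 and also list FastQC 0.10.1, R 3.2.2 and the build GRCm38.p5. They name STAR, without a version, beside TopHat2, so the aligner behind these values is not settled here. The deposited table names no unit; its values were read as FPKM, the unit the authors use for these data, and it holds no counts. FPKM are relative to each library's total, so a rise of a few abundant genes lowers all others. The table pairs 20695 of 49452 genes with a symbol, and 49198 were named after the reference names were added.

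Groups were taken from the labels, whose control libraries read siKO in the title and non-targeting in the siRNA field. Values were transformed to log2(FPKM + 1) and fitted with limma 3.58.1 in R 4.3.3 (moderated, with an intensity trend) on the 6 libraries of a comparison or the 12 of an interaction, keeping genes that reached an FPKM of 1 in 3 or more libraries. All p-values are two-sided with Benjamini-Hochberg adjustment over all genes tested, and SE and 95% intervals are limma's. Tables and figures used Python 3.11.15, pandas 2.3.3 and matplotlib 3.10.9. The fit was also run on values simulated for BAT d0, drawn separately for each gene and called without the fold minimum. That simulation cannot show how a deviation shared by many genes of 1 library affects the calls.

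The members, the gene lists (other complement genes; NF-kB and acute-phase, interferon and glucocorticoid genes; macrophage, mesothelial, precursor, adipocyte, brown adipocyte and endothelial markers) and the tests were chosen with earlier results of these data known. Named were H19, the 7 members, called other complement genes (at most 4 a comparison by size, plus Cfd and C1qa), the 2 most abundant tested genes of each list (1 of which is not reported here), and the 3 genes most correlated with each member. Krt19, the level of Fbln1 and the overlapping genes C4a, C1rb, Zbtb12 and Gm20547 were added after their values were seen. Alternatives were no filter, an FPKM of at least 5, a pseudocount of 0.1, trimmed-mean scaling (30% trimmed), no trend, all 24 libraries in 1 fit, no minimum fold, a replicate block and leaving out each library.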

Additional observations from a re-analysis of the deposited data

Results flagged for a closer look

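10 results were marked because the same contrast differed between depots or days by an interaction test in limma with Benjamini-Hochberg adjustment. For the fall from d0 to d3 in siCtrl, BAT differed from vWAT by -1.45 (C3, adjusted p = 5.17e-07), -1.72 (C4b, 2.96e-07), -1.90 (Cfb, 1.32e-05), -1.90 (C1ra, 5.27e-09), -2.32 (C2, 1.06e-06), -2.38 (Serping1, 2.37e-10) and -0.60 (Clu, 0.0089) on the log2 scale. For the siH19 difference at d0, BAT differed from vWAT by -0.52 for Serping1 (adjusted p = 0.0384). For the siH19 difference in BAT, d3 differed from d0 by 0.48 for C1ra (adjusted p = 0.0356) and 0.35 for Serping1 (adjusted p = 0.0266).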

How the results depend on the processing

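Depot and d0 to d3 comparisons of the members kept their number of called genes within 1.5 times under every alternative run, including each left-out library. The siH19 results did not. Members called for siH19 in BAT d0 numbered 2, against 0 without the filter on low FPKM, 5 with all 24 libraries in 1 fit, 1 without the trend, 0 with the replicate block and 0 to 2 with a library left out. For the depot by siRNA interaction at d0 the number was 1, against 0 without the filter, 3 at an FPKM of at least 5, 3 with all 24 libraries, 0 without the trend, 2 with the replicate block and 0 to 2 with a library left out. For the day by siRNA interaction in BAT it was 2, against 0 without the filter, 0 after scaling, 6 with all 24 libraries, 1 with the replicate block and 0 to 3 with a library left out, and for the depot by siRNA interaction at d3 it was 0 and reached 1 (C1ra, without BAT siH19 d3 replicate 2). The cause of these shifts was not tested.

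Signs turned only in member differences that had not passed the threshold. Scaling turned C4b and Serping1 of BAT d3 after siH19 to -0.034 and -0.051, C1ra of vWAT d3 to 0.0015, C4b between the siCtrl depots at d0 to 0.065 and the d3 depot by siRNA interaction of C3 to -0.028. With a library left out, the siH19 differences in BAT d3 ranged from -0.067 to 0.096 (C4b), -0.10 to 0.22 (Cfb), -0.026 to 0.022 (Serping1) and -0.25 to 0.035 (Clu), those in vWAT d3 from -0.034 to 0.018 (C1ra) and -0.058 to 0.082 (C2), and that of C4b in vWAT d0 from -0.044 to 0.067. Of the member differences recomputed, 1552 kept sign and call, 50 lost the call, 23 gained it and 18 turned.

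Counts over all genes moved too. For siH19 in BAT d0, 245 genes became 35 without the filter, 518 with all 24 libraries, 395 without a minimum fold, 2 with the replicate block and 4 to 74 with a library left out. For vWAT d0, 200 became 65, 385 (all 24), 2 (block) and 37 to 122. For vWAT d3, 4 became 20 (all 24), 0 (block) and 1 to 5. For BAT d3, 1071 became 2023 without a minimum fold and 631 to 916 with a library left out. Between the siCtrl depots at d0, 4096 became 6386 without a minimum fold. The depot by siRNA interaction at d0 went from 140 to 85 without the filter, 305 with all 24 libraries, 84 without the trend, 81 with the block and 35 to 110 with a library left out, that at d3 from 1451 to 889 to 1432, the day by siRNA interaction in BAT from 1230 to 801 to 1091 and that in vWAT from 241 to 127 to 241. Scaling changed the split of higher and lower calls from 799 and 272 to 625 and 414 (BAT d3), 43 and 157 to 61 and 129 (vWAT d0), 1343 and 2753 to 1823 and 1974 (depots at d0), 2162 and 4216 to 2801 and 3372 (depots at d3), 966 and 485 to 634 and 755 (depot by siRNA at d3), 1058 and 172 to 529 and 321 (day by siRNA in BAT) and 3514 and 3959 to 3988 and 3539 (depot by day in siCtrl).

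Replicate numbers did not pair the samples: correlations of same-numbered deviations lay between -0.143 and 0.088, and only in the siCtrl depots at d3 did every sample correlate best with its own number (0.030 to 0.081), a hint from the data and not from the design. A library with a low depth cannot be judged without counts.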
